A study of Mus musculus with 12 samples.

Results

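C-type lectin receptors are membrane proteins of myeloid cells that bind sugars, glycolipids and related ligands on fungi, mycobacteria and damaged cells. The 10 genes described here are Clec4e, Clec4d, Clec4n, Clec7a, Clec5a, Clec4a1, Clec4a2, Clec4a3, Mrc1 and Cd209a, taken as the rows of the array whose platform gene symbol is exactly one of these names. They are 10 of 22180 genes with a row of their own, and 10 of 14079 genes that passed the filter on dim rows. Cd209a has 2 rows, of which the brighter was used, and each other gene has 1. All 10 matched a RefSeq gene by Entrez number.

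The cells were mouse macrophages differentiated from bone marrow with supernatant of L929 cells, a fibroblast line that secretes the macrophage growth factor CSF1. The knockout cells came from mice with floxed Rasgef1b alleles and a Vav-driven iCre recombinase, which is active in blood-forming cells, and the others from wild-type mice. The Rasgef1b protein is an exchange factor that loads small GTPases of the Ras family with GTP. The 4 groups were knockout cells with R848, knockout cells with saline, wild-type cells with R848 and wild-type cells with saline, with 3 arrays each. R848 is a small agonist of the endosomal receptor TLR7 and was given for 4 h, while the labels give no time for saline. No group with Cre alone is labelled, so an effect of Cre and the loss of Rasgef1b cannot be told apart. Whether the 3 arrays of a group stand for separate mice or separate dishes is not labelled, and the p-values therefore reflect a spread between arrays that may be technical.

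Levels are given as log2 intensity after RMA, on which 1 unit is a doubling. They were read on Mouse Gene 2.1 ST arrays, which probe a transcript along its length. Arrays of one group correlated between 0.991 and 0.996 across tested genes, which are not independent replicates. Rasgef1b itself lay between 8.60 and 9.45 in knockout cells with R848, against 9.69 to 9.84 in wild-type cells with R848, and between 7.88 and 8.72 in knockout cells with saline, against 9.03 to 9.19 in wild-type cells with saline. The knockout arrays lay below the wild-type arrays in both treatments, yet signal remained, and it is not known here which probes lie outside the deleted part. The row therefore checks the genotype labels only in part. The 8 macrophage markers Adgre1, Csf1r, Cd68, Lyz2, Mertk, Fcgr1, Itgam and Cd14 all passed the filter, with a mean level over the list between 10.41 and 10.75 on every array. Of 8 dendritic cell markers on the array, 5 passed the filter, with Itgax the brightest at a mean of 7.68 over all arrays. Of the other markers on the array, 2 of 9 neutrophil, 1 of 5 T cell, 1 of 4 B cell and 2 of 4 NK cell markers passed. The numbers were 3 of 5 for fibroblast, 1 of 4 for mast cell and basophil and 0 of 1 for erythroid markers. With R848, the neutrophil marker S100a9 rose by 0.32 and Elane fell by 0.20 in knockout cells, and the T cell marker Cd4 fell by 0.28 in knockout cells and 0.33 in wild-type cells. The dendritic cell marker Ccr7 rose by 0.43 in knockout cells, and the part of these markers in the receptor responses was not tested.

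The receptors Mincle (Clec4e), MCL (Clec4d), dectin-2 (Clec4n), Clec5a and dectin-1 (Clec7a) signal in a shared way. Ligand binding leads to phosphorylation of an ITAM tyrosine motif, carried by the adaptor FcRγ (gene Fcer1g) for Mincle, MCL and dectin-2, by the adaptor DAP12 (gene Tyrobp) for Clec5a, and by the tail of dectin-1 itself. The kinase Syk then docks, and the Card9, Bcl10 and Malt1 complex carries the signal to NF-kB. Clec4a2 instead carries an inhibitory ITIM motif, and the mannose receptor Mrc1 mainly takes up glycoproteins and microbes. On mouse chromosome 6, 9 neighbouring protein-coding genes in the order Clec4a1, Clec4a3, Clec4a4, Clec4b1, Clec4a2, Clec4b2, Clec4n, Clec4d and Clec4e form one cluster, which holds 6 of the genes described here. Clec7a and Clec5a lie elsewhere on chromosome 6, Mrc1 on chromosome 2 and Cd209a on chromosome 8. Clec4a1, Clec4a2 and Clec4a3 are close relatives, and whether their rows share probe sequences was not tested.

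Start regions of 3 of these genes are printed because they belong to the gene with the largest R848 response (Clec4e), its direct neighbour with a much smaller one (Clec4d) and a gene that R848 lowered (Mrc1). Each is the RefSeq sequence of build GRCm38.p6 from 250 bases before to 50 bases after the start site, in the direction of transcription, at chr6:123289822-123290121 on the minus strand for Clec4e, chr6:123261857-123262156 on the plus strand for Clec4d and chr2:14229164-14229463 on the plus strand for Mrc1. Capitals mark matches, on either strand, to the searched motifs.
Clec4e: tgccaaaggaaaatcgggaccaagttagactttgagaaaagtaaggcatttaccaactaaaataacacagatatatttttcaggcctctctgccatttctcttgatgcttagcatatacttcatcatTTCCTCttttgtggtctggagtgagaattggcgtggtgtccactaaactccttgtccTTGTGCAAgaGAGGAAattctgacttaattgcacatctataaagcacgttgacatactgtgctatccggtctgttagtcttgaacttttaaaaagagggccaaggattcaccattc
Clec4d: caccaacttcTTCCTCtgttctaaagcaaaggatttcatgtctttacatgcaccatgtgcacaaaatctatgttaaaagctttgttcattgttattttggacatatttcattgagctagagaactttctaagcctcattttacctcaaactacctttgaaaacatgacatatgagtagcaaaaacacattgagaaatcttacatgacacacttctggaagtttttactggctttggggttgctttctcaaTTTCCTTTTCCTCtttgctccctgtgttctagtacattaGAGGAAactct
Mrc1: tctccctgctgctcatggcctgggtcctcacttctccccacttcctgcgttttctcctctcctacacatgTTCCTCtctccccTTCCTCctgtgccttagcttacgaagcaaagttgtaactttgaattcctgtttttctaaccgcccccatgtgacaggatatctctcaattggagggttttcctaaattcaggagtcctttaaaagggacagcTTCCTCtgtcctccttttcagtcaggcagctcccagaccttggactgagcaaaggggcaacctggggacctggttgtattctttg

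The motifs searched were GAGGAA (the core bound by PU.1, the myeloid master regulator), TTGCNNAA (C/EBP), TGANTCA (AP-1), an NF-kB motif and an interferon response motif. Start regions of 9 of the 10 genes were in the table, all except Clec4n, and Clec7a and Clec4a3 have 2 regions each. GAGGAA occurred in 7 of the 9 genes, in Clec4a3 in 1 of its 2 regions, against 28.3% of all 32851 start regions of the same length. Clec4a2 and Cd209a lacked it. TTGCNNAA occurred in Clec4e alone, against 10.8% of all regions, TGANTCA in Clec4a2 alone, against 7.81%, and the interferon response motif in Clec4d alone, against 3.44%. In Clec4d the interferon response match overlaps a GAGGAA match just after the start site. The NF-kB motif was in 0 of the 9, against 4.79% of all regions. A match is a run of letters in this window and not a measured site.

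**Figure D1:**
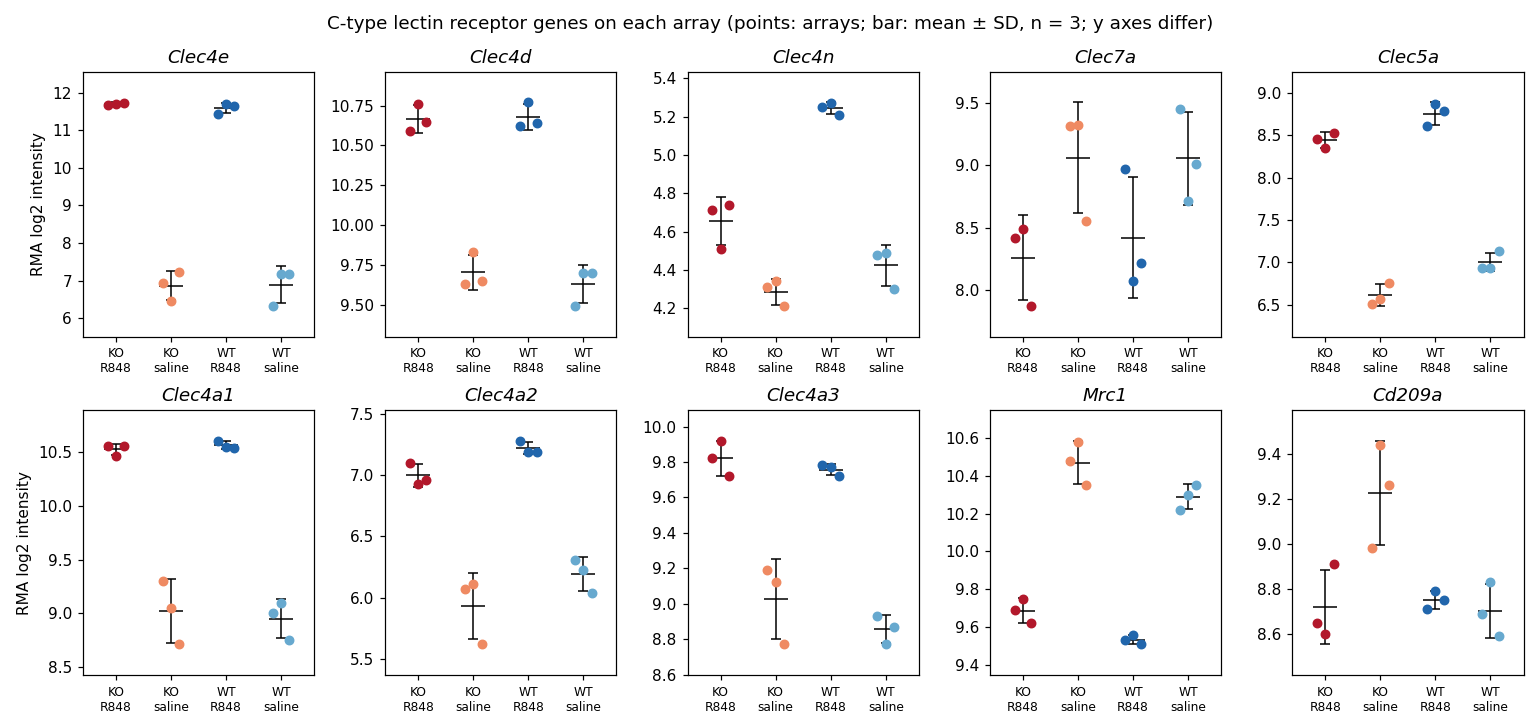
RMA log2 intensity of each of the 10 genes on each of the 12 arrays, with the knockout (KO) groups left of the wild-type (WT) groups and R848 left of saline; points are arrays, bars the mean ± SD of 3 arrays, and y axes differ between panels. Clec4e lies at 11.44 or higher on all 6 R848 arrays and at 7.23 or lower on all 6 saline arrays, while Clec7a has the largest SD of the 10 genes in both R848 groups, 0.34 and 0.48.

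The first question was how R848 changed these receptors in each genotype. R848 raised 7 of the 10 genes in both knockout and wild-type cells: the activating receptors Clec4e, Clec4d, Clec4n and Clec5a, and the Clec4a genes Clec4a1, Clec4a2 and Clec4a3. It lowered Mrc1, Clec7a and Cd209a in knockout cells, and of these only Mrc1 passed the test in wild-type cells. Of all tested genes 15.6% were called higher and 26% lower in knockout cells, and 14.6% higher and 23.6% lower in wild-type cells. The median log2 difference over the 10 genes was 0.88 in knockout cells and 0.96 in wild-type cells, against -0.03 and -0.02 over all tested genes.

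Clec4e encodes Mincle, which binds mycobacterial cord factor and products of dying cells. It stood at 11.67, 11.71 and 11.74 in knockout cells with R848, against 6.93, 6.45 and 7.23 in knockout cells with saline. In wild-type cells it stood at 11.44, 11.70 and 11.66 with R848, against 6.32, 7.19 and 7.18 with saline. The R848 and saline arrays were far apart in both genotypes, and the scatter was wider with saline. The log2 difference was 4.84 ± 0.21 (SE, limma adjusted p = 1.02e-10), or 28.6-fold, in knockout cells and 4.70 ± 0.21 (adjusted p = 1.52e-10), or 26.1-fold, in wild-type cells. By the absolute size of the difference, Clec4e ranked 15 of 14079 tested genes in knockout cells and 14 in wild-type cells.

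Clec4d encodes MCL, which pairs with Mincle at the cell surface and binds the same class of glycolipid. It measured 10.59, 10.76 and 10.65 in knockout cells with R848, against 9.63, 9.83 and 9.65 with saline. Wild-type cells gave 10.62, 10.77 and 10.64 with R848, against 9.49, 9.70 and 9.70 with saline. The groups did not overlap, and the increase of 0.96 ± 0.09 (SE, limma adjusted p = 3.61e-07) in knockout cells and 1.05 ± 0.09 (adjusted p = 1.65e-07) in wild-type cells was close to a doubling.

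Clec5a encodes MDL-1, a receptor coupled to DAP12 and known as a sensor of flaviviruses. Its values were 8.46, 8.35 and 8.53 in knockout cells with R848, against 6.51, 6.57 and 6.76 with saline. In wild-type cells they were 8.61, 8.87 and 8.79 with R848, against 6.94, 6.94 and 7.13 with saline. This is the second largest increase among the 10 genes, 1.83 ± 0.09 (SE, limma adjusted p = 7.11e-10) or 3.56-fold in knockout cells and 1.75 ± 0.09 (adjusted p = 1.31e-09) or 3.37-fold in wild-type cells.

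Clec4n encodes dectin-2, a receptor for fungal mannans. It measured 4.71, 4.51 and 4.74 in knockout cells with R848, against 4.31, 4.34 and 4.21 with saline. In wild-type cells it measured 5.25, 5.27 and 5.21 with R848, against 4.48, 4.49 and 4.30 with saline. Its saline values lay near the dim limit of 4.31 to 4.35, with 2 of 3 knockout and 1 of 3 wild-type saline arrays not above the limit of their array, so the increases may be understated. The increase was 0.37 ± 0.08 (SE, limma adjusted p = 0.00203) in knockout cells and 0.82 ± 0.08 (adjusted p = 1.24e-06) in wild-type cells.

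The 3 Clec4a genes belong to the dendritic cell immunoreceptor (DCIR) family. Clec4a1 stood at 10.56, 10.47 and 10.56 in knockout cells with R848, against 9.30, 9.05 and 8.71 with saline, and at 10.61, 10.55 and 10.54 in wild-type cells with R848, against 9, 9.10 and 8.75 with saline. Clec4a2, the member with an ITIM, stood at 7.10, 6.93 and 6.96 in knockout cells with R848, against 6.07, 6.11 and 5.62 with saline, and at 7.28, 7.19 and 7.19 in wild-type cells with R848, against 6.31, 6.23 and 6.04 with saline. Clec4a3 stood at 9.82, 9.92 and 9.72 in knockout cells with R848, against 9.19, 9.12 and 8.77 with saline, and at 9.78, 9.77 and 9.72 in wild-type cells with R848, against 8.93, 8.77 and 8.87 with saline. All 3 were higher on every R848 array than on every saline array of the same genotype, and knockout saline replicate 3 was lowest of its group for each. The log2 increases in knockout cells were 1.51 for Clec4a1, 1.06 for Clec4a2 and 0.79 for Clec4a3, with limma adjusted p of 1.33e-07, 2.77e-06 and 1.28e-05. Those in wild-type cells were 1.62, 1.03 and 0.90, with limma adjusted p of 7.06e-08, 4.37e-06 and 3.86e-06.

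Mrc1 encodes the mannose receptor CD206, a common marker of alternatively activated macrophages. It stood at 9.69, 9.75 and 9.62 in knockout cells with R848, against 10.48, 10.58 and 10.35 with saline. Wild-type cells gave 9.53, 9.56 and 9.51 with R848, against 10.22, 10.30 and 10.35 with saline. Every R848 array lay below every saline array of its genotype, and Mrc1 fell by 0.78 ± 0.08 (SE, limma adjusted p = 8.14e-07), or 1.72-fold, in knockout cells and by 0.76 ± 0.08 (adjusted p = 1.29e-06), or 1.69-fold, in wild-type cells. Of 10 further genes used as markers of alternative activation, 6 passed the filter, of which 3 rose and 1 (Clec10a, -0.30) fell in knockout cells and 3 rose and 0 fell in wild-type cells. Il4ra, a chain of the interleukin 4 receptor, rose by 2.29 in knockout cells and 2.58 in wild-type cells, and Tgm2, a transglutaminase, rose by 2.09 and 1.93. Of the 8 macrophage markers, 2 rose and 4 fell in knockout cells with R848, and 2 rose and 3 fell in wild-type cells. Beside both lists, 15.6% of all tested genes rose and 26% fell in knockout cells, and 14.6% and 23.6% in wild-type cells. Mertk, a receptor for the clearance of dead cells, fell by 1.92 ± 0.14 (SE, limma adjusted p = 4.09e-08) in knockout cells and by 1.79 ± 0.14 (adjusted p = 9.86e-08) in wild-type cells, and Csf1r, the receptor for CSF1, fell by 0.45 and 0.34. Cd14 rose by 0.66 in knockout cells and 0.67 in wild-type cells, and Adgre1 rose by 0.22 and 0.32. The part of these markers in the Mrc1 difference was not tested. In such bulk samples, fewer cells of a type and less RNA per cell cannot be told apart.

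Clec7a encodes dectin-1, the main receptor for fungal beta-glucan. It measured 8.42, 8.49 and 7.87 in knockout cells with R848, against 9.31, 9.32 and 8.55 with saline, and 8.97, 8.07 and 8.22 in wild-type cells with R848, against 9.45, 8.71 and 9.01 with saline. The SD within groups was between 0.34 and 0.48, the largest of the 10 genes in both R848 groups, and in wild-type cells the R848 and saline arrays overlapped. The knockout difference was -0.80 ± 0.26 (SE, limma adjusted p = 0.0223). The wild-type difference was -0.64 ± 0.26 (adjusted p = 0.0686), which did not pass. Between arrays of the same number the difference was -0.89, -0.83 and -0.68 in knockout cells. In wild-type cells it was -0.48, -0.64 and -0.79. The labels do not pair the arrays. Residuals of same-numbered R848 and saline arrays correlated over 0.1 in every number in knockout cells only. The knockout call was lost without knockout saline replicate 1 (-0.68, adjusted p = 0.0887) or 2 (-0.67, adjusted p = 0.0894) and without knockout R848 replicate 3 (-0.61, adjusted p = 0.105). It was also lost with robust moderation and a trend on intensity (adjusted p = 0.0526) and after median centring over the tested genes (-0.66, adjusted p = 0.0509). Over the 11 alternatives that kept all arrays, the adjusted p of the knockout difference ranged from 0.00316 to 0.0526. The wild-type difference passed without wild-type saline replicate 2 (-0.81, adjusted p = 0.0405), wild-type R848 replicate 1 (-0.91, adjusted p = 0.0102) or knockout saline replicate 3 (-0.64, adjusted p = 0.043), and with array weights (-0.66, adjusted p = 0.033). It also passed with a term for the replicate number (adjusted p = 0.0139) and with a shared correlation of same-numbered arrays (adjusted p = 0.0292).

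Cd209a is one of several mouse relatives of the human dendritic cell receptor DC-SIGN. It stood at 8.65, 8.60 and 8.91 in knockout cells with R848, against 8.98, 9.44 and 9.26 with saline. In wild-type cells it stood at 8.71, 8.79 and 8.75 with R848, against 8.69, 8.83 and 8.59 with saline. The knockout saline arrays were higher than all 9 others, and knockout cells alone had R848 and saline arrays that did not overlap. The difference between R848 and saline was -0.51 ± 0.11 (SE, limma adjusted p = 0.00202) in knockout cells and 0.05 ± 0.11 (adjusted p = 0.797) in wild-type cells. The second Cd209a row, with a mean of 5.03 and a range of 4.92 to 5.19 over all arrays, differed by 0.00 in knockout cells and 0.06 in wild-type cells, neither past the threshold.

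**Figure D2:**
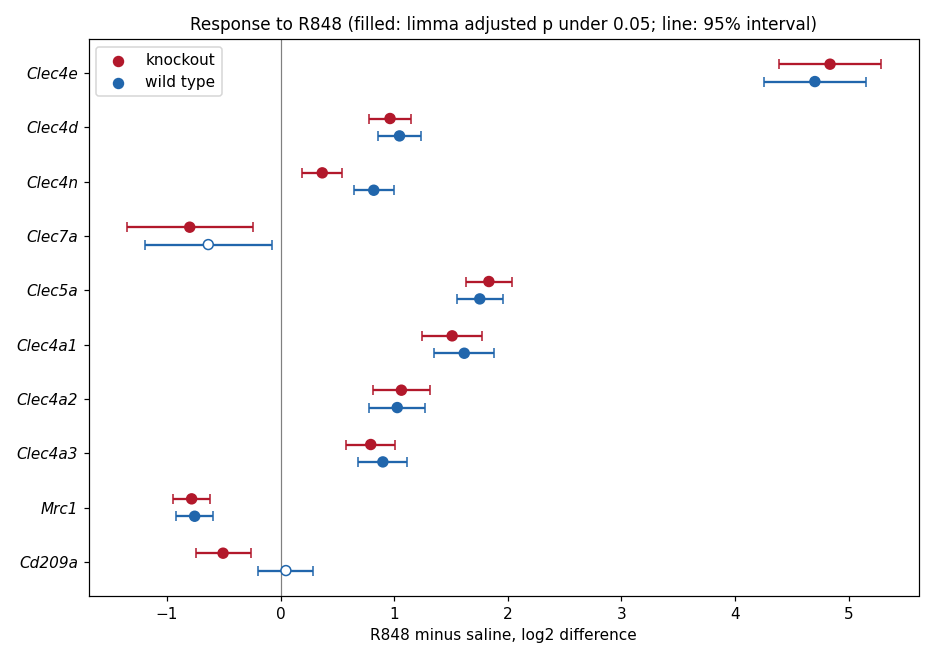
Log2 difference between R848 and saline for each of the 10 genes in knockout and wild-type cells, with 95% intervals for each gene (not adjusted for the number of genes); filled points passed the limma threshold. Clec4e stands alone at 4.84 and 4.70, 6 further genes lie between 0.37 and 1.83, and Mrc1 and Clec7a lie below 0 in both genotypes.

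Over the 10 genes, R848 and saline arrays did not overlap for 7 higher and 3 lower genes in knockout cells, and for 7 higher and 1 lower gene in wild-type cells. Of all tested genes 19.6% were higher without overlap and 29.3% lower in knockout cells, and 19.5% and 28.6% in wild-type cells. A two-sided exact permutation test of 3 against 3 arrays cannot go below 0.1 for a single gene. Centring the arrays on the median of the tested genes, an alternative chosen after seeing the data, moved the median difference of all tested genes to 0.12 in knockout cells and 0.11 in wild-type cells. The share of higher genes among all called genes was then 63.6% in knockout cells and 62.2% in wild-type cells, against 37.4% and 38.3% with the deposited scaling. The 7 increases, the decrease of Mrc1 and the knockout decrease of Cd209a kept their calls there, and the knockout decrease of Clec7a lost its call.

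**Figure D3:**
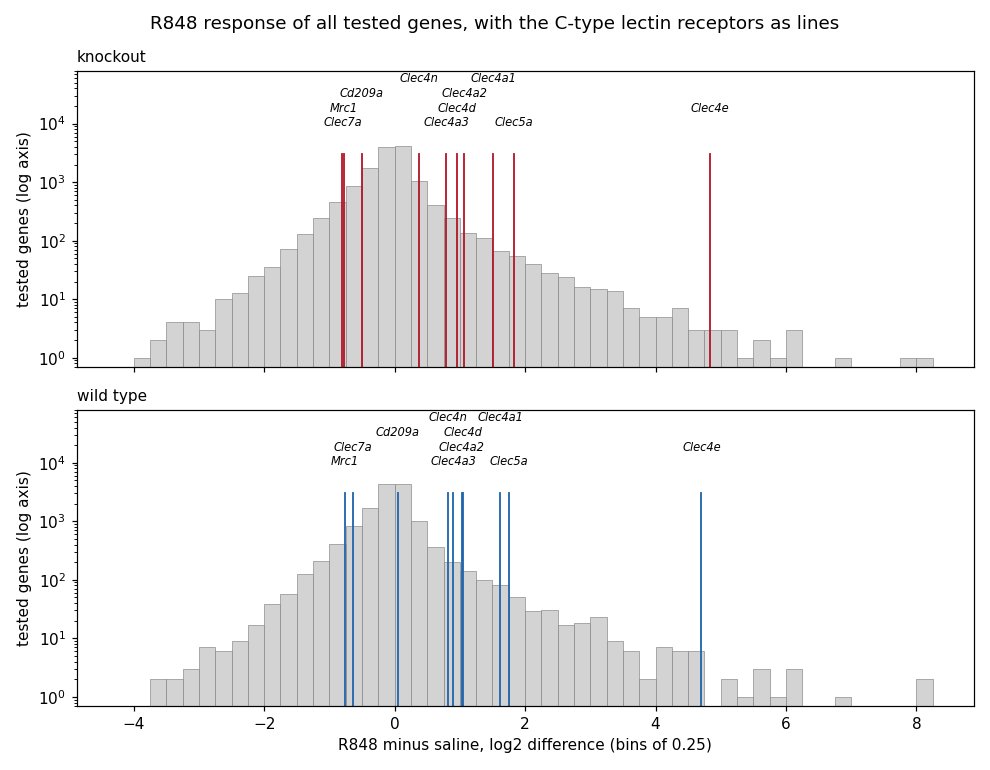
Distribution of the log2 difference between R848 and saline over all 14079 tested genes in knockout cells (top) and wild-type cells (bottom), in bins of 0.25 with a log count axis; lines mark the 10 receptor genes. Clec4e lies in the upper tail in both panels and all other receptor genes lie between -0.80 and 1.83.

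In the Clec4 cluster, Clec4e at one end had the largest increase, with a 95% interval above those of the other 7 tested genes in both genotypes. Its neighbour Clec4d and the next gene, Clec4n, had log2 increases of 0.96 and 0.37 in knockout cells and of 1.05 and 0.82 in wild-type cells. Clec4b1 and Clec4b2, the neighbours of Clec4a2, did not pass: Clec4b1 differed by -0.30 in knockout cells (limma adjusted p = 0.114) and -0.32 in wild-type cells (adjusted p = 0.0986), and Clec4b2 by 0.24 (adjusted p = 0.117) and 0.27 (adjusted p = 0.0758). Both lay near the dim limit, with means over all arrays of 4.56 and 4.29. Clec4a4 lay under the limit on all 12 arrays and was not tested.

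**Figure D4:**
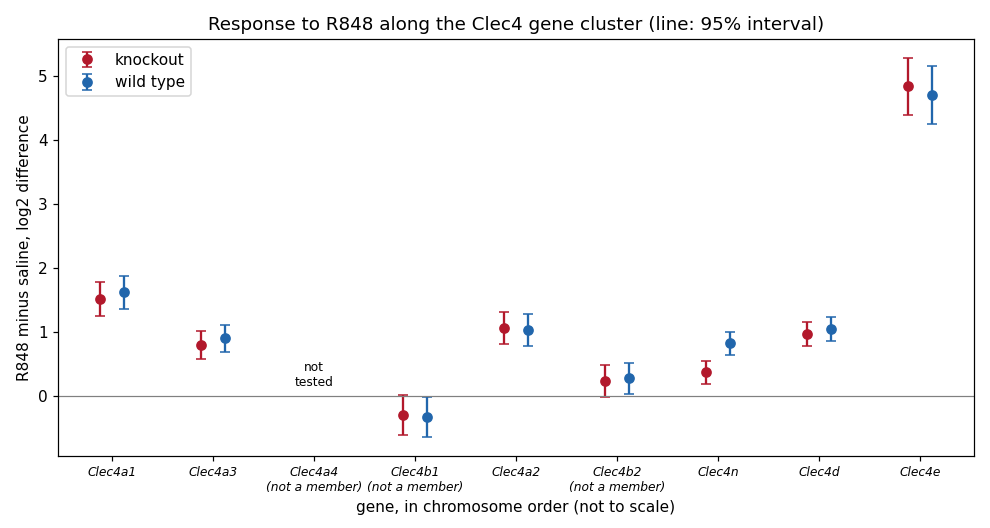
Log2 difference between R848 and saline, with 95% intervals for each gene, for the 9 genes of the cluster in chromosome order (not to scale) in knockout and wild-type cells. The other 5 receptor genes lie between 0.37 and 1.51 in knockout cells and between 0.82 and 1.62 in wild-type cells, Clec4e lies at 4.84 and 4.70, and Clec4b1 and Clec4b2 lie on either side of 0.

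The next question was whether the receptors differed between genotypes. With R848, dectin-2 (Clec4n) was lower in knockout cells and was the only one of the 10 genes to pass, while with saline 0 passed in limma, although 4 had an unadjusted p under the threshold. Of all tested genes 0.0781% were called lower and 0.0568% higher with R848, and 0.192% lower and 0.142% higher with saline. At the unadjusted threshold were 2 of the 10 with R848, against 8.74% of all tested genes, and the 4 with saline stand against 12.6%. Averaged over treatments, Clec4n and Clec5a were lower in knockout cells, where 1.01% of tested genes were called lower and 0.774% higher. In the same comparison 1 of the 2 tested neutrophil markers, S100a9, was higher in knockout cells, by 0.30 ± 0.07 (SE, limma adjusted p = 0.0375). It differed by 0.47 with R848 (adjusted p = 0.0866) and 0.12 with saline (adjusted p = 0.644). The summed linear intensity of the 9 neutrophil markers was 149 to 153 in knockout cells with R848, against 132 to 143 in wild-type cells with R848, and 141 to 143 in knockout cells with saline, against 133 to 143 in wild-type cells with saline. Of these markers 5 were under the dim limit on all 12 arrays, S100a8 among them, and their part in the receptor values was not tested.

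Clec4n averaged 4.65 ± 0.13 (SD, n = 3) in knockout cells with R848 and 5.24 ± 0.03 (n = 3) in wild-type cells with R848. Every knockout array was under every wild-type array, with a log2 difference of -0.59 ± 0.08 (SE, limma adjusted p = 0.00493). The row was dim with R848 too. Its knockout values of 4.51 to 4.74 lay near the array medians of 4.49 to 4.57 and not far above the dim limit of 4.31 to 4.35. A stricter filter, at the 60th percentile, removed the gene and this call with it. With saline Clec4n averaged 4.29 ± 0.07 (SD, n = 3) in knockout cells and 4.42 ± 0.11 (n = 3) in wild-type cells. The difference was -0.14 (adjusted p = 0.524), with overlapping arrays near the dim limit. Averaged over treatments the difference was -0.36 ± 0.06 (SE, adjusted p = 0.0079). Without each array in turn, the adjusted p ranged from 0.00568 to 0.0416 with R848 and from 0.00907 to 0.0309 averaged over treatments, and the difference with R848 ranged from -0.63 to -0.52. Its neighbours Clec4b2 and Clec4d differed by 0.08 and -0.01 between genotypes with R848 (limma adjusted p = 0.892 and 0.985). Clec4e, the gene beyond Clec4d, differed by 0.11 (adjusted p = 0.934).

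Clec5a was lower on every knockout array than on every wild-type array of the same treatment. It averaged 8.45 ± 0.09 (SD, n = 3) in knockout cells with R848 and 8.76 ± 0.13 (n = 3) in wild-type cells with R848, a difference of -0.31 (limma adjusted p = 0.285). With saline it averaged 6.61 ± 0.13 in knockout cells and 7.003 ± 0.11 in wild-type cells (SD, n = 3 each), a difference of -0.39 (limma adjusted p = 0.103). Neither passed, and the difference averaged over treatments was -0.35 ± 0.07 (SE, adjusted p = 0.0204). That call was lost without wild-type R848 replicate 2 (adjusted p = 0.0622) or 3 (0.0536), knockout saline replicate 2 (0.0535) or knockout R848 replicate 2 (0.0585).

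Cd209a had the largest difference with saline among the 10 genes. It averaged 9.23 ± 0.23 (SD, n = 3) in knockout cells with saline and 8.70 ± 0.12 (n = 3) in wild-type cells with saline. Every knockout array was over every wild-type array, but the log2 difference of 0.52 ± 0.11 (SE, limma adjusted p = 0.0716) did not pass. It passed without knockout saline replicate 1 (0.65, adjusted p = 0.0343). With R848 it averaged 8.72 ± 0.17 in knockout cells and 8.75 ± 0.04 in wild-type cells (SD, n = 3 each), a difference of -0.03 (limma adjusted p = 0.965). Beside it, the mean level of the 8 dendritic cell markers on the array lay between 4.75 and 4.79 in knockout cells with saline and between 4.63 and 4.88 in wild-type cells with saline. Zbtb46, Dpp4 and Btla, 3 of these markers, were under the dim limit on all 12 arrays. Of the 5 tested, 0 passed between genotypes with saline in limma. An unadjusted p under the threshold was found for 1 of them, against 12.6% of all tested genes. Xcr1 (0.27, limma adjusted p = 0.231) and Flt3 (0.15, adjusted p = 0.441) were higher on every knockout array with saline, as were 6.65% of all tested genes. The other 3 tested markers were lower on average in knockout cells. The summed linear intensity of the list was 282 to 362 in knockout cells and 297 to 468 in wild-type cells with saline. Its brightest gene, Itgax, averaged 7.32 ± 0.53 in knockout cells and 7.55 ± 0.60 in wild-type cells (SD, n = 3 each). The part of these markers in the Cd209a values was not tested. All these Cd209a values are of its brighter row. In a fit with all rows of each gene, the second row differed by 0.02 between genotypes with saline (limma adjusted p = 0.943). With R848 the second row differed by -0.04 (adjusted p = 0.946).

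The other 7 genes did not pass in any comparison of the genotypes. Clec4a2 was lower on every knockout array with R848 (-0.22, limma adjusted p = 0.618) and differed by -0.26 with saline (adjusted p = 0.374). Mrc1 was higher on every knockout array with R848 (0.15, adjusted p = 0.6) and differed by 0.18 with saline (adjusted p = 0.338). The 95% interval of the genotype difference with R848 ran from -0.20 to 0.18 for Clec4d, from -0.30 to 0.23 for Clec4a1 and from -0.15 to 0.28 for Clec4a3. For Clec4e it ran from -0.34 to 0.55 and for Clec7a from -0.72 to 0.40, so that a moderate difference in either direction was not detectable with these arrays. In all, 3 of the 10 genes lay lower and 1 higher in knockout cells without overlap of the arrays with R848, against 8.46% and 5.35% of all tested genes. With saline 1 lay lower and 1 higher, against 9.43% and 6.65%.

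**Figure D5:**
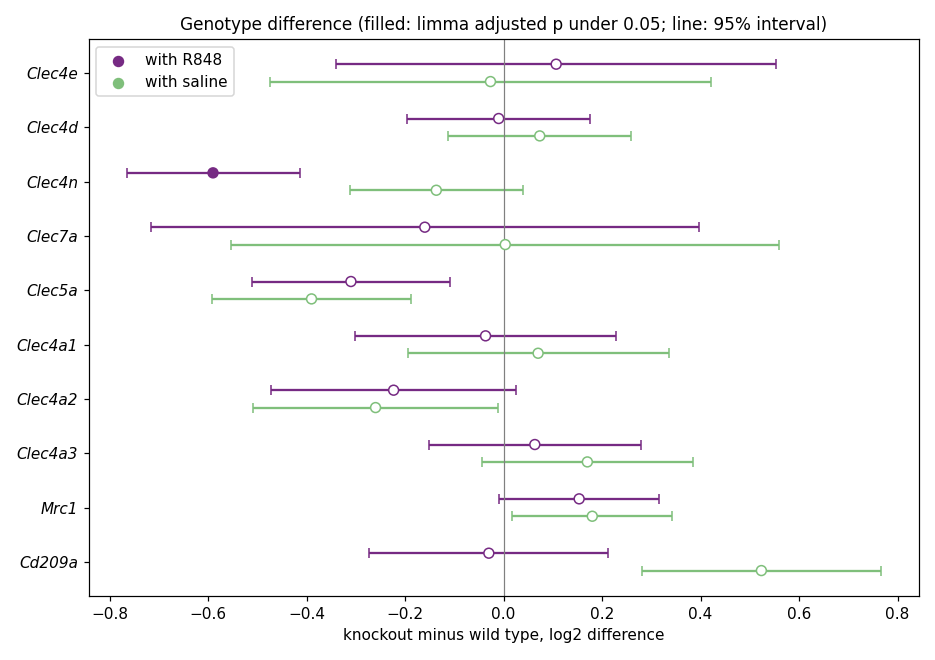
Log2 difference between knockout and wild-type cells for each of the 10 genes with R848 and with saline, with 95% intervals for each gene (not adjusted for the number of genes); filled points passed the limma threshold. Clec4n with R848, at -0.59, is the filled point, Clec5a lies at -0.31 and -0.39, and Cd209a at -0.03 with R848 and 0.52 with saline.

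Whether the knockout changed the response to R848 was tested as the interaction, the knockout response minus the wild-type response, which was past the threshold for 0.0142% of tested genes. None of the 10 genes passed in limma, and 2 had an unadjusted p under the threshold, against 4.93% of all tested genes. These were Clec4n, with a response of 0.37 in knockout cells and 0.82 in wild-type cells and an interaction of -0.45 ± 0.12 (SE, limma adjusted p = 0.746), and Cd209a, with responses of -0.51 and 0.05 and an interaction of -0.55 ± 0.16 (SE, adjusted p = 0.948). Saline values of Clec4n, 4.21 to 4.34 in knockout cells and 4.30 to 4.49 in wild-type cells, lay near the dim limit of 4.31 to 4.35. Its responses may therefore be understated, and not equally in the genotypes. The second Cd209a row had an interaction of -0.06 (limma adjusted p = 0.996, in a fit with all rows). For Clec4e the interaction was 0.13, with a 95% interval from -0.50 to 0.77. For the remaining 7 genes it lay between -0.16 and 0.08.

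Genes of the signalling pathway behind the receptors were measured as a list of 20 kinases, adaptors and phosphatases, of which 17 had a row and all 17 passed the filter. R848 raised 9 and lowered 3 in knockout cells, and raised 9 and lowered 1 in wild-type cells. For comparison, 15.6% of all tested genes were called higher and 26% lower in knockout cells, and 14.6% and 23.6% in wild-type cells. Malt1, the protease of the Card9 complex, rose by 2.75 ± 0.10 (SE) in knockout cells and 2.66 ± 0.10 in wild-type cells. Inpp5d, the lipid phosphatase SHIP1, fell by 2.64 ± 0.08 in knockout cells and differed by -2.34 ± 0.08 in wild-type cells. The Src-family kinases Src and Fgr rose by 2.03 and 1.84 in knockout cells, and by 2.08 and 1.85 in wild-type cells. All these had a limma adjusted p of 1.67e-08 or lower. The median over the list was 0.41 in knockout cells and 0.40 in wild-type cells.

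The next genes of the list are direct partners of the receptors or of their complex and were singled out after their values were seen. Syk rose by 1.69 ± 0.08 (SE, limma adjusted p = 2.19e-10) in knockout cells and by 1.76 ± 0.08 (adjusted p = 1.47e-10) in wild-type cells. Bcl10 rose by 0.77 in knockout cells and 0.70 in wild-type cells (limma adjusted p = 1.4e-05 and 3.72e-05). The adaptor gene Fcer1g differed by 0.05 in knockout cells and 0.10 in wild-type cells, and Card9 by -0.12 and -0.16, none of them past the threshold. Tyrobp fell by 0.35 (limma adjusted p = 0.00705) in knockout cells and differed by -0.17 (adjusted p = 0.176) in wild-type cells. Between genotypes 0 of the 17 genes passed in limma with R848, with saline, averaged over treatments or as an interaction. At an unadjusted p under the threshold were 1 with R848, 1 with saline and 2 for the interaction. The shares of all tested genes were 8.74%, 12.6% and 4.93%. Averaged over treatments, 1 of the 17 was under it.

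Of 46 further C-type lectin and lectin-like genes, 42 had a row, and 23 of these did not pass the filter on dim rows, among them Mgl2, Ly75, Clec1b and 4 relatives of Cd209a (Cd209b, Cd209d, Cd209e and Cd209g). Of the 19 tested, R848 raised 3 and lowered 4 in knockout cells, and raised 4 and lowered 3 in wild-type cells. Over all tested genes the shares were 15.6% higher and 26% lower in knockout cells, and 14.6% and 23.6% in wild-type cells. Cd69, an activation marker, rose by 5.60 in knockout cells and 5.57 in wild-type cells, and Olr1, the lectin-like receptor for oxidized LDL, by 2.64 and 2.41; for each of them 2 of the saline arrays were under the dim limit. Colec12, a scavenger receptor with a collectin domain, fell by 0.75 in knockout cells and by 0.62 in wild-type cells, and Cd93, a receptor with a lectin-like domain, by 0.67 and 0.68. Cd302 rose by 0.52 in knockout cells and 0.92 in wild-type cells, with an interaction of -0.40 that did not pass. The median over the 19 was 0.06 in knockout cells and -0.01 in wild-type cells, and 0 of the 19 passed between genotypes in limma. At an unadjusted p under the threshold were 0 with R848 and 3 with saline, against 8.74% and 12.6% of all tested genes.

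Genes that act with dectin-1 in the uptake of fungi and the cytokine response to them were the last list, with 16 of 18 tested. R848 raised 11 and lowered 4 in knockout cells, and raised 11 and lowered 2 in wild-type cells. The shares of all tested genes were 15.6% higher and 26% lower in knockout cells, and 14.6% and 23.6% in wild-type cells. The cytokine genes Il12b and Tnf rose by 4.73 and 3.57 in knockout cells and by 4.42 and 3.24 in wild-type cells. The cytokine genes Il1b and Il6 also rose in both genotypes, but all their 6 saline arrays were under the dim limit, so the size of their increase is not given. Il1b averaged 12.06 in knockout cells and 12.11 in wild-type cells with R848, and Il6 averaged 7.72 in knockout cells and 7.55 in wild-type cells with R848. Averaged over treatments, 1 of the 16 genes was higher in knockout cells and 0 lower, against 0.774% and 1.01% of all tested genes. It was Cd37, a tetraspanin that associates with dectin-1, with a log2 difference of 0.21 ± 0.05 (SE, limma adjusted p = 0.0447). Between genotypes 0 of the 16 passed with R848 or with saline in limma. Cd37 differed by 0.13 with R848 (limma adjusted p = 0.646) and by 0.29 with saline (adjusted p = 0.102).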

How the data were processed

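The deposited table holds RMA log2 values for 34472 rows and 12 arrays; per the submitters' processing notes the authors used Affymetrix Expression Console and RMA, which corrects background, applies quantile normalization and summarizes probes per row. Tool versions were not given in the sources used here. A change in total RNA per cell is not visible after this scaling, and scan dates and strips were not used here. The platform table gave 1 symbol to 23521 rows, several to 1814 and none to 9137. Where several rows carried one symbol, the brightest on average stood for the gene. Genes above the 40th percentile of 1-symbol rows, 4.31 to 4.35 (the dim limit), on at least 3 arrays were tested, which left 14079.

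All 12 arrays entered 1 linear model per gene with a mean per group (limma 3.58.1 in R 4.3.3). Benjamini-Hochberg adjustment ran over all tested genes, with a threshold of 0.05. The number of arrays limits the precision. The fit was tested on simulated data. Every one of the 10 genes is described, and of each further list up to 4 genes per comparison with the largest difference, those past the threshold first, besides the cluster neighbours, markers and genes said to be singled out later. The members and lists were chosen with earlier results of these data known. Residuals of same-numbered knockout R848 and knockout saline arrays correlated at 0.27, 0.17 and 0.28, over the minimum of 0.1 for a pairing. It comes from the data, not the labels, and the other group pairs did not meet it in every number. Protein sequences were not used here. Alternatives covered the moderation, filter, scaling, weights, pairing, rows and each array left out.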

Additional observations from a re-analysis of the deposited data

How the results depend on the processing

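Across 11 alternatives that kept all arrays, the 10 genes gave 634 values in 6 comparisons, of which 18 changed side or sign, and leaving out each array gave 720, of which 49 did. No called difference changed sign. The changes of sign were in differences near 0: -0.00667 for Clec7a with saline and -0.00333 for Clec4a1 averaged over treatments after median centring, 0.0443, 0.0187 and 0.0274 for Clec4d, Clec4a1 and Cd209a between genotypes with R848 after cyclic loess, 0.0308 for the Mrc1 interaction after cyclic loess, -0.0644 and 0.0385 for Clec4e and Clec7a averaged over treatments with array weights, and 0.03, 0.00333 and 0.01 for Clec4d, Clec4a1 and Cd209a with R848 after centring over the tested genes, an alternative chosen after seeing the data.

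Among the 10 genes, calls of Clec7a, Clec5a and Cd209a changed with the setting. With a replicate block, Clec5a (-0.39) and Cd209a (0.52) passed with saline (adjusted p = 0.0485 each), so that 1 gene was higher and 1 lower, and Clec7a passed in wild type (adjusted p = 0.0139). Clec7a in wild type also passed with array weights (-0.66, adjusted p = 0.033) and with correlated pairs (adjusted p = 0.0292), giving 2 lower genes in each of these 3 settings. The block changed no call in the knockout R848 comparison. The stricter filter removed Clec4n, so R848 raised 6 in place of 7 genes in each genotype, and between genotypes 0 of the 10 were lower with R848 and 1 averaged over treatments. Genotype calls over all genes with saline, 47, became 31 without a filter, 8 with the 6 arrays compared and 99 with a replicate block. Averaged over treatments 251 became 393 with array weights, 402 with a replicate block and 118 with correlated pairs. The share of higher genes among those called moved with the scaling: with R848 42.1% as deposited, 57.7% after cyclic loess and 59.3% after centring over the tested genes; with saline 42.6% and 61.8% after that centring; averaged 43.4%, 29.8% after median centring, 57.5% and 65.8%. The cause of these shifts was not tested.

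With each array left out, all-gene counts ranged from 10 to 65 with saline, 73 to 249 averaged over treatments and 1 to 2 for the interaction. Counts of the 10 genes ranged from 1 to 2 lower under R848 in wild type, 0 to 1 higher in knockout with saline and 1 to 2 lower averaged over treatments. Sign changes lay in these ranges: for Clec4e -0.32 to 0.18 with saline, -0.0767 to 0.42 for the interaction and -0.10 to 0.15 averaged; for Clec7a -0.34 to 0.12 with R848, -0.17 to 0.26 with saline, -0.42 to 0.11 for the interaction and -0.17 to 0.0592 averaged; for Clec4d -0.0567 to 0.0367 with R848 and -0.00333 to 0.055 averaged; for Cd209a -0.01 to 0.11 under R848 in wild type and -0.13 to 0.03 with R848; for Clec4a1 -0.07 to 0.23 with saline, -0.26 to 0.0333 for the interaction and -0.0533 to 0.0942 averaged; for Clec4a2 and Mrc1 interactions -0.12 to 0.13 and -0.0867 to 0.0283. Depth of signal limits Clec4n, whose saline values lie at the dim limit.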
